A study of Saccharomyces cerevisiae with 6 samples.

Results

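The genes described here encode proteins of the mitochondrial ribosome of the budding yeast Saccharomyces cerevisiae. They were chosen by name, though with earlier results of these data known. Every probe whose gene is called MRPL, MRPS or RSM and a number was taken, giving 54 of the 6256 gene probes. Of these, 34 are MRPL genes for the large subunit and 20 belong to the small subunit, 9 named MRPS and 11 named RSM. Total RNA came from 3 fermentation runs with 50 g/L xylose, sampled at 9 h, and from 3 with 50 g/L glucose, sampled at 3 h, and each was hybridised to a one-colour Agilent array. Sugar and time differed together, so a difference between the groups cannot be assigned to either. The glucose samples carry 9 h in 1 label but 3 h in all others, and 3 h was taken. No source used here names the strain or says that the runs were separate cultures, so p-values reflect only how these samples varied, which may be technical.

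The mitochondrial ribosome translates the few messages of mitochondrial DNA, nearly all of which encode membrane subunits of the respiratory complexes and of the ATP synthase. Its large subunit joins amino acids and its small subunit reads the message. Almost all of its proteins are encoded in the nucleus and imported, and many descend from the ribosome of the bacterial ancestor while others are found in mitochondria alone. In this yeast, glucose represses many respiratory genes, and messages for mitochondrial ribosomal proteins are also known targets of the RNA-binding protein Puf3.

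Levels below are log2 processed intensities less the array's 75th percentile, so 0 marks a probe as bright as that percentile, and a level is compared between arrays for 1 probe and never between probes. A difference is the mean of the xylose arrays minus that of the glucose arrays, fitted for all 5907 genes tested with limma, and called at an adjusted p under 0.05 (Benjamini-Hochberg). All 54 genes were well above background on all 6 arrays and all were tested. No spot was saturated.

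Some arrays of 1 sugar were much more alike than others. Xylose replicates 1 and 2 differed by a median of 0.06 (log2, absolute) over the 54 genes, whereas each differed from xylose replicate 3 by 0.47. Whether those arrays carry separate RNA is not given in the labels, so the tests were also run with their mean as 1 sample. Glucose replicate 2 stood apart in strain markers: LEU2, for leucine synthesis, had a level of 0.34 there against -9.07 to -7.88 elsewhere. MET17, for methionine synthesis, stood at 4.57 in that array against -9.06 to -8.04 elsewhere. ASP3-1, an asparaginase gene, stood at -8.55 there against 2.87 to 3.99. URA3 and TRP1 also stood apart there. HIS3 did not, at -8.59 against -9.11 to -8.03 elsewhere. Nor did ADE2, at 1.23 against 1.21 and 1.24 in the other glucose arrays. ADE2 was called lower in xylose (-1.60, limma adjusted p = 0.0215). Of the a-cell mating genes MFA1, MFA2, STE2, STE6, BAR1 and AGA2, all 6 were well above background on every array, and of the alpha-cell genes SAG1 was on 6 arrays, STE3 on 5, MF(ALPHA)1 on 4 and MF(ALPHA)2 on 1. The a-cell genes had a median difference of -1.38 with 0 called by limma (5 of 6 at an unadjusted p under 0.05). The 3 alpha-cell genes tested had one of 1.06, with MF(ALPHA)1 called higher (1.33), STE3 at 1.06 and SAG1 at -0.26. Without glucose replicate 2 STE3 differed by 1.84 and SAG1 by 0.25. In that fit limma called 2 a-cell genes lower (STE2 and STE6) and 2 alpha-cell genes higher (MF(ALPHA)1 and STE3), against 11.5% of all genes called. The part of these genes in the results was not tested. Replicates 1 and 2 of each sugar shared a slide, called slide 1 here, and replicate 3 of each sugar was on slide 2. Values that glucose replicate 2 moved by more than 1.5-fold, or whose sign it turned, are therefore also given without it.

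No mitochondrial ribosomal gene passed the test with sugar as the only term, in either direction. The 54 differences ran from -0.17 for RSM19 to 0.90 for MRPL28. Over all genes tested the same fit called 149 (2.52%), of which 84 (1.42%) were higher and 65 (1.1%) lower in xylose. A fit blocked on replicate number called 310 of all genes (5.25%) and 0 of the 54. A fit blocked on the slide called 690 of all genes (11.7%) and 4 of the 54, MRPL28, MRPL6, RSM10 and MRPS18, but with xylose replicates 1 and 2 averaged it called 0 of all genes (0.0%). At an unadjusted p under 0.05 the 54 genes gave 4, or 7.41%, against 16.5% of all genes. In 7 of the 54 (13.0%) the groups did not overlap, always with xylose higher, against 23.5% of all genes without overlap and 12.6% with xylose higher. No difference reached 2-fold, where 11.4% of all genes did. The sizes were nonetheless mostly of 1 sign: 49 of 54 differences lay above 0, against 51.6% of all genes, and on the scale of the spike-in controls 6 of 54 did. The median of the 54 was 0.35 where that of all genes was 0.02, and -0.34 on the spike-in scale where that of all genes was -0.67. Relative to all genes the subunit medians were 0.29 (large) and 0.34 (small), or 0.16 and 0.10 without glucose replicate 2. Spike-in centring shifts the difference of every gene by the same amount, so these relative values cannot change with it. In RNA from whole cultures, fewer cells that carry a message and less of it per cell cannot be told apart. Without glucose replicate 2 the median was 0.19, with 42 of 54 above 0 and again none called, against 53.0% of all genes above 0 and 11.5% called.

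On the 75th-percentile scale the intervals were uneven about 0. For 53 of 54 genes, MRPL9 being the exception, the 95% interval of the difference lay above a 2-fold fall, as it did for 64.6% of all genes. For 18 of 54 it also lay below a 2-fold rise, against 63.3% of all genes. An interval within 2-fold either way was thus reached by 18 genes (33.3%), close to the 34.4% over all genes. The intervals of the other genes reached past a 2-fold rise. On the spike-in scale 0 of 54 intervals lay above a 2-fold fall (5.18% of all genes) and 24 of 54 lay below a 2-fold rise (72.5%), so neither bound held on both scales for all of these genes.

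**Figure D1:**
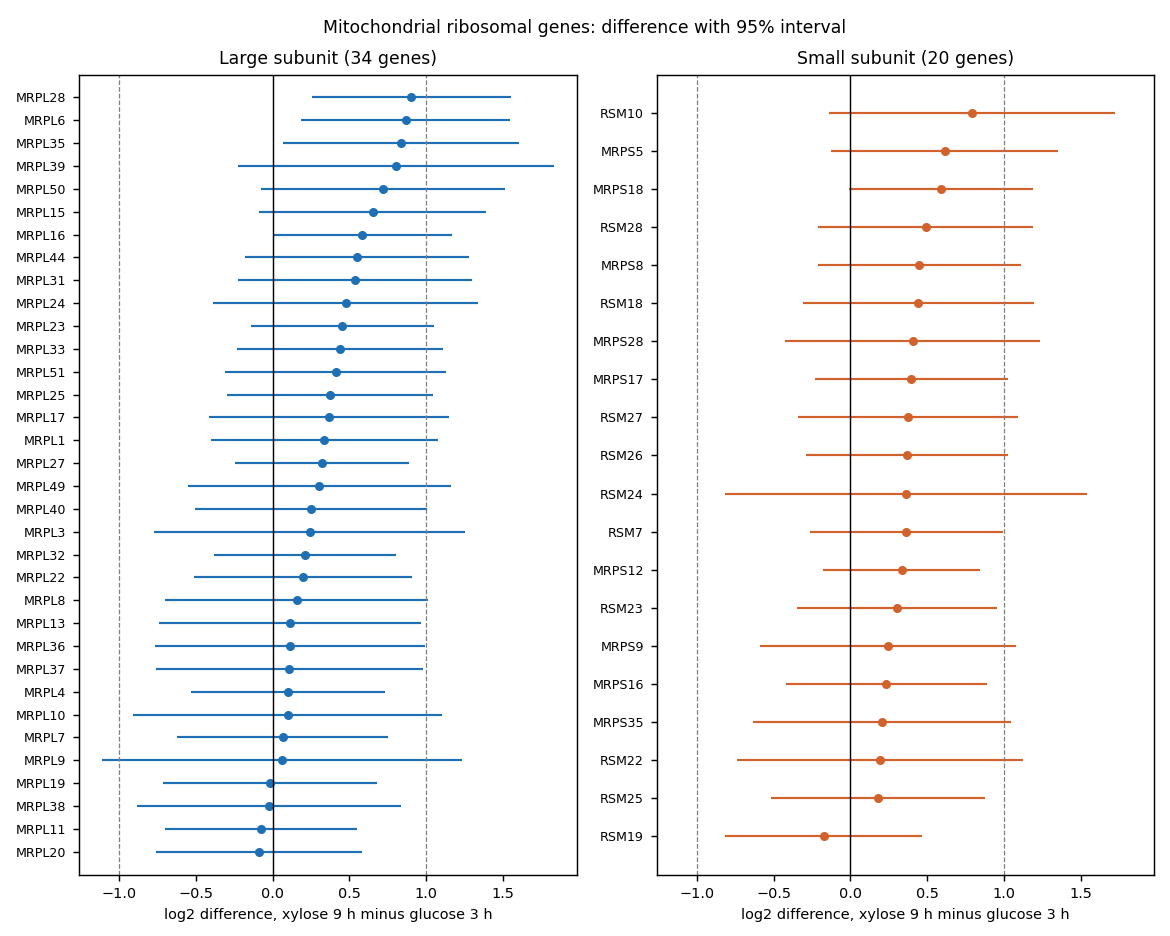
Differences of the 54 mitochondrial ribosomal genes (log2, xylose 9 h minus glucose 3 h; points are limma estimates from 3 arrays per sugar, bars their 95% intervals), sorted within each subunit, with dashed lines at 2-fold either way. The points run from -0.17 to 0.90, mostly right of 0 on this scale (6 of 54 on the spike-in scale), and the bars of MRPL28, MRPL6, MRPL35 and MRPL16 alone clear 0.

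Among the 34 large-subunit genes the largest difference was that of MRPL28, whose protein is specific to mitochondria. MRPL28 had levels of -1.32, -1.05 and -1.61 in xylose replicates 1 to 3, against -1.87, -2.34 and -2.47 in glucose replicates 1 to 3. The groups did not overlap, and the difference was 0.90 ± 0.27 (SE, n = 3 against 3), 1.87-fold, with a limma adjusted p of 0.156, or 0.0418 with the slide as a block. MRPL6, the counterpart of bacterial ribosomal protein uL6, had -1.41, -1.59 and -2.07 in xylose, against -2.24, -2.57 and -2.87 in glucose. Its groups did not overlap either, but xylose replicate 3 and glucose replicate 1 lay close together, and the difference was 0.87 ± 0.29 (limma adjusted p = 0.194, or 0.0311 with the slide as a block). Both differences were nearly as large without glucose replicate 2, at 0.85 for MRPL28 and 0.86 for MRPL6.

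In the next genes single arrays weighed more. MRPL35, another mitochondria-specific protein, had -1.13, -1.18 and -1.63 in xylose, against -1.60, -2.63 and -2.22 in glucose, a difference of 0.83 ± 0.33. MRPL39, the counterpart of bacterial bL33, had -0.90, -0.34 and -0.48 in xylose, against -0.82, -2.35 and -0.96 in glucose. For MRPL39 glucose replicate 2 alone stood low, and its difference of 0.80 ± 0.44 was 0.32 without that array. MRPL50, the counterpart of bL9, had -0.79, -0.85 and -1.45 in xylose, against -1.17, -1.97 and -2.09 in glucose, and differed by 0.72 ± 0.34. The groups of MRPL35, MRPL39 and MRPL50 overlapped, and their limma adjusted p-values ran from 0.266 to 0.431.

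At the other end of the large subunit lay 4 genes with differences below 0, all within their spread. MRPL20, a mitochondria-specific protein, had -0.65, -0.70 and -1.04 in xylose, against -0.34, -1.14 and -0.64 in glucose, a difference of -0.09 ± 0.29. MRPL11, the counterpart of the stalk protein uL10, had -0.41, -0.41 and -0.11 in xylose, against -0.20, -0.59 and 0.09 in glucose. The difference of MRPL11 was -0.08 ± 0.26, and its levels in the sugars interleaved. MRPL38 (uL14) and MRPL19 (uL11) differed by -0.03 ± 0.37 and -0.02 ± 0.30. Without glucose replicate 2 these values were -0.31 for MRPL20, -0.26 for MRPL11, -0.35 for MRPL38 and -0.18 for MRPL19, and 10 of the 34 large-subunit genes lay below 0, none of them called. MRPL9, the counterpart of uL3, differed by 0.06 ± 0.50, with an interval from -1.12 to 1.24, among the widest of the 54 genes. Its levels were 0.45, 0.36 and -0.92 in xylose, against 0.49, 0.12 and -0.90 in glucose. The low array of each sugar was replicate 3, on slide 2, and without glucose replicate 2 the difference of MRPL9 was 0.17.

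The narrowest intervals of the large subunit belonged to MRPL27, MRPL16 and MRPL32. MRPL27, mitochondria-specific, differed by 0.32 ± 0.24, with a 95% interval from -0.25 to 0.88. MRPL32 (bL32) differed by 0.21 ± 0.25, with an interval from -0.38 to 0.81. Both intervals lay within 2-fold either way, and without glucose replicate 2 the differences were 0.20 for MRPL27 and 0.03 for MRPL32. MRPL16 (uL16), a protein near the catalytic centre of the bacterial ribosome, had 0.31, 0.32 and 0.27 in xylose, against -0.07, -0.64 and -0.14 in glucose. Its groups did not overlap, the xylose arrays had an SD of 0.03, and the difference was 0.58 ± 0.25 with a limma adjusted p of 0.301.

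In the small subunit 19 of 20 differences lay above 0, which on the spike-in scale became 1 of 20. RSM10, the counterpart of bacterial uS10, had -0.40, -0.23 and -1.14 in xylose, against -1.09, -0.97 and -2.08 in glucose. Replicate 3 was the lowest array in both sugars, so the groups overlapped, and the difference was 0.79 ± 0.40 (limma adjusted p = 0.382, or 0.0291 with the slide as a block). Within slide 1 it was 0.72 and within slide 2 it was 0.94. MRPS5 (uS5), whose bacterial counterpart acts in decoding accuracy, had -0.40, -0.39 and -1.11 in xylose, against -0.83, -1.45 and -1.47 in glucose. Here too xylose replicate 3 fell inside the glucose range, and the difference was 0.61 ± 0.31.

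MRPS18, which despite its name is the counterpart of bacterial uS11, had -0.35, -0.42 and -0.82 in xylose, against -0.96, -1.01 and -1.39 in glucose. Its groups did not overlap, and its difference of 0.59 ± 0.25 (limma adjusted p = 0.310, or 0.0363 with the slide as a block) was 0.64 without glucose replicate 2. RSM28, a mitochondria-specific protein, had -0.59, -0.63 and 0.08 in xylose, against -1.12, -0.95 and -0.54 in glucose, a difference of 0.49 ± 0.30. MRPS8 (uS8) differed by 0.45 ± 0.28, which was 0.26 without glucose replicate 2. In both RSM28 and MRPS8 replicate 3 was the highest array of each sugar.

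RSM19 (uS19) was the 1 small-subunit gene below 0. It had -0.86, -0.64 and -1.003 in xylose, against -0.72, -0.27 and -0.99 in glucose, and differed by -0.17 ± 0.27. Unlike most of these genes RSM19 was highest in glucose replicate 2, and without that array its difference was 0.02. The other small differences were 0.18 ± 0.30 for RSM25, 0.19 ± 0.39 for RSM22, a protein resembling methyltransferases, 0.21 ± 0.36 for MRPS35 and 0.23 ± 0.28 for MRPS16 (bS16). Without glucose replicate 2 they were 0.02 for RSM25, -0.17 for RSM22, 0.08 for MRPS35 and 0.02 for MRPS16, and RSM22 and MRPS9 (-0.06) were then the 2 small-subunit genes below 0. All of their groups overlapped. The narrowest intervals were those of MRPS12, MRPS18 and RSM7. MRPS12 (uS12), the decoding-centre protein in bacteria, had 1.97, 1.98 and 1.74 in xylose, against 1.62, 1.46 and 1.60 in glucose. The groups of MRPS12 did not overlap and the difference was 0.33 ± 0.22, with an interval from -0.18 to 0.84 that lay within 2-fold. RSM7 (uS7) differed by 0.36 ± 0.27 and, without glucose replicate 2, by 0.54.

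The subunits could not be told apart by their differences. The large subunit had a median of 0.31 (quartiles 0.11 and 0.52) and the small subunit one of 0.37 (quartiles 0.24 and 0.44), so the median of the large subunit minus that of the small was -0.05. Taken array by array, with each gene less its own mean over 6 arrays, the same subtraction gave 0.11, 0.09 and -0.05 in xylose replicates 1 to 3, against 0.21, 0.00 and 0.05 in glucose replicates 1 to 3. The groups overlapped, and the pooled SD between replicates was 0.10. The order of the medians turned without xylose replicate 3, where the subtraction gave 0.07, without glucose replicate 2, where it gave 0.06, and without glucose replicate 1, where it gave 0.04. Neither the MRPS genes (median 0.40, or 0.21 without glucose replicate 2) nor the RSM genes (0.36, or 0.13) held a called gene. None of the 20 small-subunit genes reached an unadjusted p under 0.05, and 4 of the 34 large-subunit genes did (11.8%), which were MRPL28, MRPL6, MRPL35 and MRPL16. Both subunits lay below the 16.5% of all genes, and the contrast between them was not tested.

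Grouping the genes of both subunits together by ancestry, which was done after their values were seen, gave no wider gap. The 33 genes with a bacterial counterpart had a median of 0.33 and the 20 for mitochondria-specific proteins one of 0.37; RSM22 was put in neither class. Without glucose replicate 2 the order turned, at 0.21 with a counterpart and 0.17 without. Within the large subunit the gap was wider, with medians of 0.21 for 21 genes with a counterpart and 0.37 for 13 without. Without glucose replicate 2 these were 0.17 and 0.31, and the gap was not tested. Within the small subunit the order was the other way, 0.40 for 12 genes and 0.36 for 7, or 0.27 and 0.11 without glucose replicate 2. No gene of either class was called.

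Across the arrays the genes stood lowest in glucose replicate 2. It was the lowest of the 6 for 32 of 54 genes (59.3%), against 25.2% of all genes tested, and 47 of 54 genes lay below their own mean there. The median deviation of the 54 genes from their own means was 0.20, 0.26 and 0.07 in xylose replicates 1 to 3, against 0.10, -0.52 and -0.11 in glucose replicates 1 to 3. Glucose replicate 1 thus lay inside the xylose range for the 54 genes together. It did so for the large subunit too, at 0.13 against 0.23, 0.30 and 0.07. For the small subunit it lay below every xylose array, at -0.08 against 0.11, 0.21 and 0.12. The small-subunit medians of the 2 sugars therefore did not overlap. Both subunits had the same low array, at -0.52 for the large and -0.53 for the small. The 3 genes highest in glucose replicate 2 were MRPL8 (bL17), at 1.61 there against 0.24 to 1.23 elsewhere, MRPL37 at 0.30 against -0.72 to 0.28, and RSM19; they are named here because of these values. The strain markers of that array are given above, and their part in these levels was not tested.

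**Figure D2:**
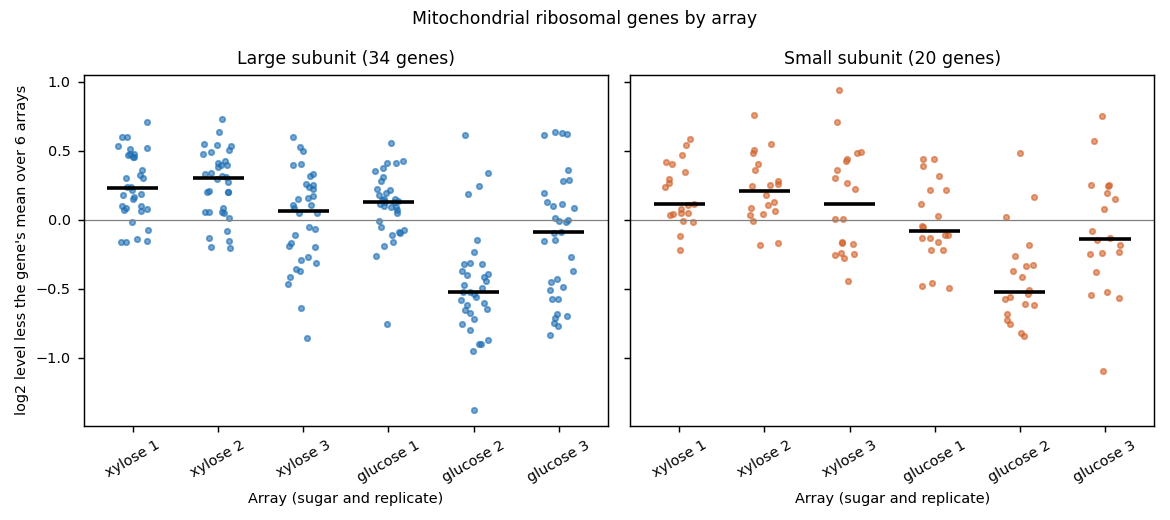
Levels of the 54 genes on each array (log2, each gene less its own mean over 6 arrays), for the large subunit on the left and the small subunit on the right; each point is a gene and each bar a median. Glucose replicate 2 sits lowest in both panels, at -0.52 and -0.53, and replicate 3 of either sugar is widely spread. The median of glucose replicate 1 lies among those of the xylose arrays for the large subunit, and below them for the small.

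Many of the genes differed more between the slides than between the sugars. In the fit with sugar and slide as terms, the slide 2 minus slide 1 difference was larger in size than the sugar difference for 30 of 54 genes (55.6%), near the 59.3% over all genes, and limma called it for 7 (13.0%), against 23.1% of all genes. Lower on slide 2 were MRPL9 by -1.27 ± 0.16, MRPL10 by -1.05 ± 0.13, RSM10 by -0.94 ± 0.14 and MRPL37 by -0.86 ± 0.12 (SE). Higher on slide 2 were RSM24 by 1.26 ± 0.17, MRPL36 by 0.86 ± 0.15 and RSM28 by 0.59 ± 0.13. MRPL10 (uL15), for example, had -1.44 and -1.27 in xylose replicates 1 and 2 and -2.38 in xylose replicate 3, against -1.37 and -1.50 in glucose replicates 1 and 2 and -2.51 in glucose replicate 3. RSM24, mitochondria-specific, ran the opposite way, with -1.54, -1.50 and -0.39 in xylose, against -1.78, -2.16 and -0.57 in glucose. Slide 2 held replicate 3 of each sugar and nothing else, so slide and replicate cannot be told apart.

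With the slide as a block, which takes this shared shift out, limma called 4 of 54 genes (7.41%), all higher in xylose, against 11.7% of all genes called and 6.42% called higher. They were RSM10 (adjusted p = 0.0291), MRPL6 (0.0311), MRPS18 (0.0363) and MRPL28 (0.0418), with the differences given above; on the spike-in scale MRPS18 lay below 0. With xylose replicates 1 and 2 averaged in the same blocked fit, an alternative chosen after seeing the data, none of the 4 was called. Their limma adjusted p-values ran from 0.175 to 0.225. That fit called 0 of all 5907 genes tested, so its count says nothing about these 4 in particular. Within slide 1, which had 2 arrays per sugar, the medians were 0.42 for the large and 0.44 for the small subunit and 52 of 54 genes lay above 0. On slide 2, with 1 array per sugar and no test, they were 0.15 and 0.16, with 35 of 54 above 0.

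**Figure D3:**
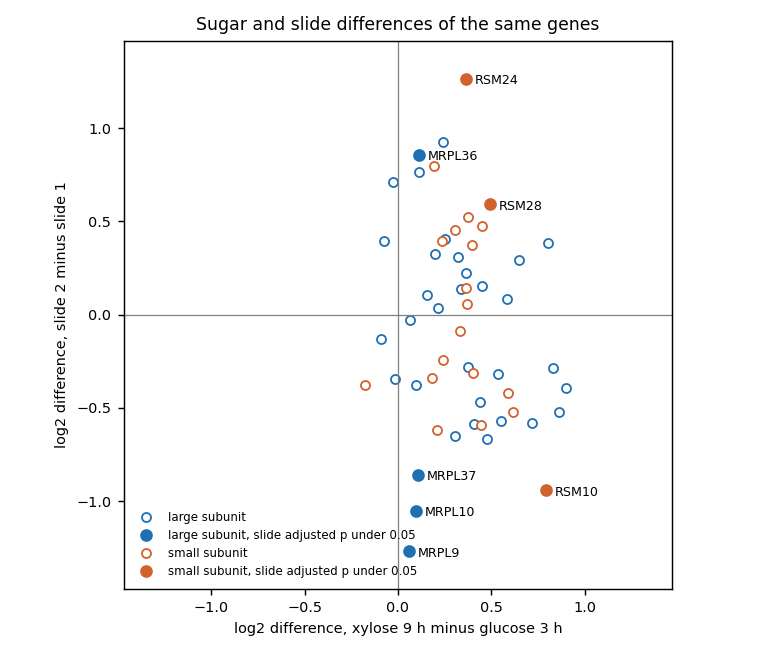
Sugar difference (horizontal, log2, xylose 9 h minus glucose 3 h) against slide difference (vertical, log2, slide 2 minus slide 1) for each of the 54 genes; filled points passed limma's test for the slide. The 7 filled genes reach from -1.27 to 1.26 along the slide axis, while no gene passes 0.90 along the sugar axis.

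The remaining mitochondrial ribosomal genes, named otherwise, ran like the 54. The 11 of the large subunit had a median of 0.39 and the 14 of the small subunit, VAR1 of the mitochondrial DNA among them, one of 0.38. None was called by limma, with 1 and 0 at an unadjusted p under 0.05, and without glucose replicate 2 the medians were 0.25 and 0.26. The largest sizes were those of MRP49 (0.81 ± 0.32) and MRP20 (0.67 ± 0.81) in the large subunit, and of PET123 (0.61 ± 0.37) and MRP10 (0.50 ± 0.33) in the small. VAR1, the only ribosomal protein made inside the mitochondrion, differed by 0.08 ± 0.41 and was highest in glucose replicate 2. Without that array VAR1 differed by 0.46, PET123 by 0.28 and MRP10 by 0.24. Of all 79 genes 73 lay above 0, though on the spike-in scale the medians of these added lists were -0.30 and -0.31.

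The partners of the ribosome in mitochondrial translation held no called gene with all arrays either. The 12 genes listed as translation factors had a median of 0.31 and 2 at an unadjusted p under 0.05, which were MEF1, an elongation factor, at 0.78 ± 0.23 and PTH2, a peptidyl-tRNA hydrolase, at -0.62 ± 0.26. PTH2 is named because of its value. TUF1, the mitochondrial EF-Tu, differed by 0.67 ± 0.43, or 0.23 without glucose replicate 2. That list also holds MTF1, which serves transcription. The 12 genes for assembly, rRNA modification and membrane anchoring had a median of 0.26 and 2 such genes, the rRNA methyltransferases MRM1 at -0.71 ± 0.28 and MRM2, named for its value, at 0.64 ± 0.24. MAM33, an acidic matrix protein, differed by 0.96 ± 0.60, or 0.22 without glucose replicate 2, where alone it stood low. Without glucose replicate 2 limma called 1 gene of this list, lower in xylose, which was MRM1 at -0.93. The 16 translational activators had a median of 0.25 and 1 gene at an unadjusted p under 0.05, with CBP6 at 0.78 ± 0.33 (0.45 without glucose replicate 2) and PET111 at 0.70 ± 0.36. The 13 mitochondrial aminoacyl-tRNA synthetases had a median of 0.04, or -0.12 without glucose replicate 2, and 0 such genes. SLM5 differed by -0.59 ± 0.57 (-0.17 without that array) and MSF1 by -0.52 ± 0.30.

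The nuclear subunits of the respiratory chain and ATP synthase, many of which have mitochondrially made partners that this ribosome translates, differed more widely. Of 37 such genes limma called 18, all of them higher in xylose, and 27 higher and 1 lower without glucose replicate 2. Over all 5907 genes tested it called 84 (1.42%) higher, and 348 higher and 334 lower without glucose replicate 2. The median of the 37 genes was 1.44, and 0.75 on the spike-in scale, with the called ones among them between 1.101 for QCR6 and 2.14 for COX4. Array by array their median deviation was 0.81, 0.75 and 0.72 in xylose replicates 1 to 3, against -0.62, -0.79 and -0.84 in glucose replicates 1 to 3, so that the groups lay apart. The same medians of the 54 mitochondrial ribosomal genes overlapped, as given above, though those of the small subunit alone did not. The 138 cytosolic ribosomal protein genes had a median of -0.46 with all arrays and -0.95 without glucose replicate 2. With all arrays limma called 0 of them, with 9 at an unadjusted p under 0.05, against 16.5% of all genes. Without glucose replicate 2 it called 49 of them lower, where it called 334 of all 5907 genes lower. RPS22A, of the small subunit, differed by -1.25 ± 0.53 and RPL7B, of the large, by -1.11 ± 0.34. In glucose their median deviation was 0.72, -0.70 and 0.60 in replicates 1 to 3, so glucose replicate 2 was the low array for the cytosolic as for the mitochondrial ribosome. These lists differ in size and share their arrays, and the differences between their medians were not tested.

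**Figure D4:**
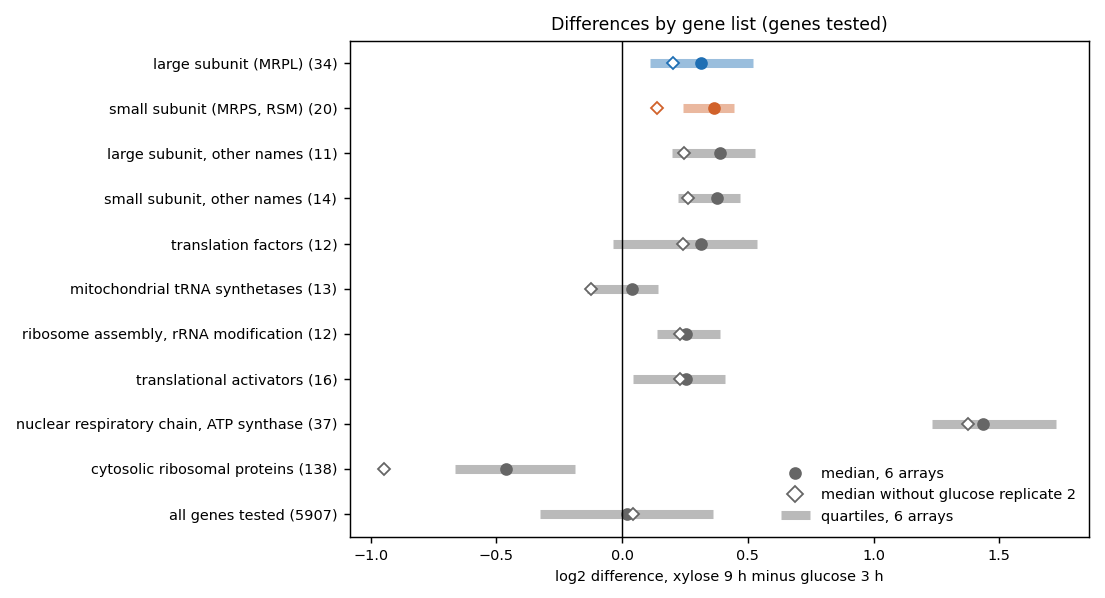
Median log2 difference, xylose 9 h minus glucose 3 h, of the mitochondrial ribosomal genes and of the other gene lists, with quartiles (bars) over the genes tested, given in brackets, and the median without glucose replicate 2 (open diamonds). The large and small subunit sit at 0.31 and 0.37 between the respiratory genes at 1.44 and the cytosolic ribosomal genes at -0.46; on the spike-in scale the subunits lie at -0.38 and -0.32.

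On the chromosomes the 54 genes were scattered among others. MRPS12 and RSM19, on the same strand, were the only members next to each other in the reference gene table, and they differed by 0.33 ± 0.22 and -0.17 ± 0.27. Of 95 tested genes next to a member limma called 0, against 2.52% of all genes, and 9 had an unadjusted p under 0.05, against 16.5%. The median difference of these neighbours was 0.14, where that of all genes was 0.02.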

How the data were processed

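Each deposited scanner file holds, per the file headers, a processed intensity and flags for every spot, written by Agilent Feature Extraction 10.1.1.1 (a version the submitters' processing notes also give). The deposited table of log2 values equalled, within 0.01, the scanner values below less 1 constant per array in 100.0% of 37530 values, so its scale and direction are known and it is not centred per gene. Its column medians were -1.25, -1.23 and -1.38 for xylose and -1.26, -1.26 and -1.41 for glucose replicates 1 to 3.

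Control, non-uniform and outlying spots were left out (727 to 1722 of 43792 gene spots per array). Log2 intensity less the array's 75th percentile (1407 to 3871 units) was averaged over the 7 spots of a probe. Genes with more than 0.5 of their spots well above background on at least 3 arrays were tested, 5907 of 6256, with limma 3.58.1 in R 4.3.3, sugar as the only term. The number of arrays limits the precision. Symbols came from the RefSeq table of assembly R64, which named 5756 probes. Only the fit with sugar as the only term was tried on simulated data, in which noise was independent between arrays. Those data held no slide shift and no array that stood apart. Same-numbered arrays deviated together from their group means (r = 0.40, 0.22 and 0.71 across genes for numbers 1 to 3), so a fit with the number as a block was run. Replicates 1 and 2 correlated as much across numbers (0.41 and 0.25), so beyond the shared slide these values do not separate number 1 from number 2. The median spot signal replaced the mean signal in normexp, the files used holding no mean. Spike-in centring used 7 control probes. Genes named are the 5 of largest and 5 of smallest difference and the 3 of narrowest interval per subunit, and from other lists called genes or the 2 of largest size. The members and lists were chosen with earlier results of these data known.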

Additional observations from a re-analysis of the deposited data

How the results depend on the processing

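No member was called in any setting that gives a test, other than the 4 with the slide as a block: the settings were the slide block with xylose replicates 1 and 2 averaged (chosen after seeing the data), the replicate block, slide 1 alone, normexp background, median, spike-in or quantile normalization, the deposited table, both filters on dim probes, outlying spots kept, xylose replicates 1 and 2 averaged, and each array left out in turn. With the replicate block 0 of 54 members were called, against 310 of all genes (5.25%). Spike-in centring moved the medians to -0.38 for the large and -0.32 for the small subunit, along with all genes, and 43 of 54 members changed sign there, none of them called. Normexp moved the median of all genes to 0.22, and relative to it the subunits stood at 0.11 and 0.18, against 0.29 and 0.34 in the values reported. The small-subunit median was 0.16 within slide 2. Leaving out 1 array gave 0.14 (without glucose replicate 2) to 0.43 for the small subunit, 0.20 (without glucose replicate 2) to 0.44 for the large, and -0.11 to 0.075 for large minus small (0.075 without xylose replicate 3, 0.065 without glucose replicate 2, 0.042 without glucose replicate 1). Of all genes, 12 were called without xylose replicate 1 or 2, or with those averaged. With those averaged and the slide as a block 0 were called, and 682 without glucose replicate 2. Slide 1 alone called 0 of all genes too, so neither its count nor that of the averaged slide block says anything about the members. Higher and lower in xylose, normexp called 37 and 16 of all genes, median centring 82 and 74, spike-in 23 and 108, and quantile 105 and 86. These counts were 9 and 4 without xylose replicate 3, 16 and 12 without glucose replicate 1, and 31 and 22 without glucose replicate 3. All members were well above background on every array, so the filters on dim probes could drop none. The deposited table held the same values less 1 constant per array, so it was no separate check.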
